A study of Mus musculus with 6 samples.

Results

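The kainate receptor genes Grik1 to Grik5 and the genes of their auxiliary subunits, Neto1 and Neto2, were followed in RNA-seq of the dorsal hippocampus after knockdown of the lncRNA Snhg11. These 7 genes were taken by name from the 55401 genes of the count files, and all 7 had enough counts to be tested. The samples came from 6 male WT mice, littermates of the Ts65Dn line, aged 4 months. In 3 of them the dorsal dentate gyrus (DG) of each hemisphere was injected with 50 μg of Control-ASO, and in the other 3 with 50 μg of Snhg11-ASO. An ASO is a short modified strand that pairs with a target RNA, which RNase H then cuts, and Control-ASO holds the same bases in scrambled order. The whole dorsal hippocampus was collected 3 days later, so RNA of injected and neighbouring cells was measured together.

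Kainate receptors are glutamate-gated cation channels of 4 subunits. Grik1, Grik2 and Grik3 encode the low-affinity subunits GluK1, GluK2 and GluK3, which can form channels on their own. Grik4 and Grik5 encode the high-affinity subunits GluK4 and GluK5, which reach the surface only together with a low-affinity subunit. Neto1 and Neto2 are membrane proteins with CUB domains that bind the receptors and slow their closing and desensitization. In the hippocampus these receptors are best known from the mossy fibre synapse of granule cells onto CA3 neurons, and GluK1 from interneurons.

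The coding sequences of the 5 subunits fell into the same 2 classes, and are shown to set out how the 5 genes are related. In the annotated transcript with the longest coding sequence (GENCODE M21), identity was 72.1% for Grik1 with Grik2, 71.1% for Grik1 with Grik3 and 72.1% for Grik2 with Grik3, over 2666 to 2718 aligned bases. Grik4 and Grik5 were 71.1% identical over 2839 bases, whereas pairs across the classes had 56.2% to 60.7%. Neto1 and Neto2 shared 65.6% of 1498 bases. The stretch that encodes the pore loop is given for each subunit from 5′ to 3′, with the Q/R codon in capitals. At this codon the RNA of Grik1 and Grik2 is known to be edited, mainly by ADAR2, the product of Adarb1, which turns glutamine into arginine.
Grik1: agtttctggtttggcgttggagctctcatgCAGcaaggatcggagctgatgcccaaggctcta
Grik2: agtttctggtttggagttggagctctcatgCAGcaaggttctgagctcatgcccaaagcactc
Grik3: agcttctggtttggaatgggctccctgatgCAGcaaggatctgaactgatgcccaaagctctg
Grik4: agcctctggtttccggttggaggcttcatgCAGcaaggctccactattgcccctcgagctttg
Grik5: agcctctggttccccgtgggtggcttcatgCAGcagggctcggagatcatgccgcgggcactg
The stretch is interrupted by an intron in Grik1 (chr16:87936090-87940574, minus strand of GRCm38), Grik2 (chr10:49240771-49244361, minus) and Grik3 (chr4:125691177-125693987, plus). It lies within 1 exon in Grik4 (chr9:42547593-42547655, minus) and Grik5 (chr7:25022467-25022529, minus). Gene counts do not tell edited from unedited RNA, and editing was not measured here.

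The counts on genes summed to 28951250 to 34293344 read pairs in the Control-ASO samples and to 38556524 to 43997537 in the Snhg11-ASO samples. Levels are given as CPM, the read pairs on a gene per 1000000 on all genes tested, with library totals scaled by TMM factors. The targeted Snhg11 was at 551, 436 and 209 CPM after Control-ASO, against 139, 65.4 and 69.4 CPM after Snhg11-ASO, without overlap. Markers of granule cells, of CA1, CA2 and CA3 pyramidal cells and of interneurons were counted in all samples, with 0 of these 30 genes at 0 throughout. Snhg11-ASO replicate 1 stood apart from the rest, with Spearman correlations across genes of 0.955 to 0.960 to the other samples, which correlated at 0.979 to 0.991 among themselves. Choroid plexus markers summed to 1890, 36.2 and 1224 CPM in Control-ASO replicates 1 to 3. In Snhg11-ASO replicates 1 to 3 they summed to 1294, 124 and 67.8 CPM. No round of surgery, extraction or sequencing is named for the samples, so p-values measure the spread between these 6 mice.

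The comparison asked how the kainate receptor genes differed between Snhg11-ASO and Control-ASO samples. Grik1, Grik2 and Grik3 were lower in Snhg11-ASO, to 61.7%, 76.9% and 58.7% of the Control-ASO mean. Grik4 and Grik5 lay at 98.1% and 100.4% of it, and Neto1 and Neto2 at 92.0% and 103%. After adjustment over all genes tested, the quasi-likelihood test of edgeR left 0 of the 7 genes with a p under 0.05, as was the case for 0.0% of the 19969 genes tested. At an unadjusted p under 0.05, 3 of the 7 were lower and 0 higher, against 4.43% and 3.68% of all genes (8.11% in either direction, 1619 genes). DESeq2 called 1 of the 7, Grik1, against 258 of all genes (1.29%, and 0.796% lower), and gave 3 of the 7 an unadjusted p under 0.05, against 9.17% of all genes. In edgeR the count of 3 was 1 without Control-ASO replicate 1 (unadjusted p = 0.0539 for Grik2 and 0.0578 for Grik3) and 2 without Control-ASO replicate 3 or without Snhg11-ASO replicate 3. Whether the low-affinity subunits differed from the other members was not tested as such. The median log2 fold change of the 7 genes was -0.12, and that of all genes tested 0.01. Leaving out 1 sample moved the median of the 7 from -0.21 (without Control-ASO replicate 2) to -0.047 (without Snhg11-ASO replicate 3), and to -0.19 and -0.18 without Control-ASO replicate 3 and Snhg11-ASO replicate 2.

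**Figure D1:**
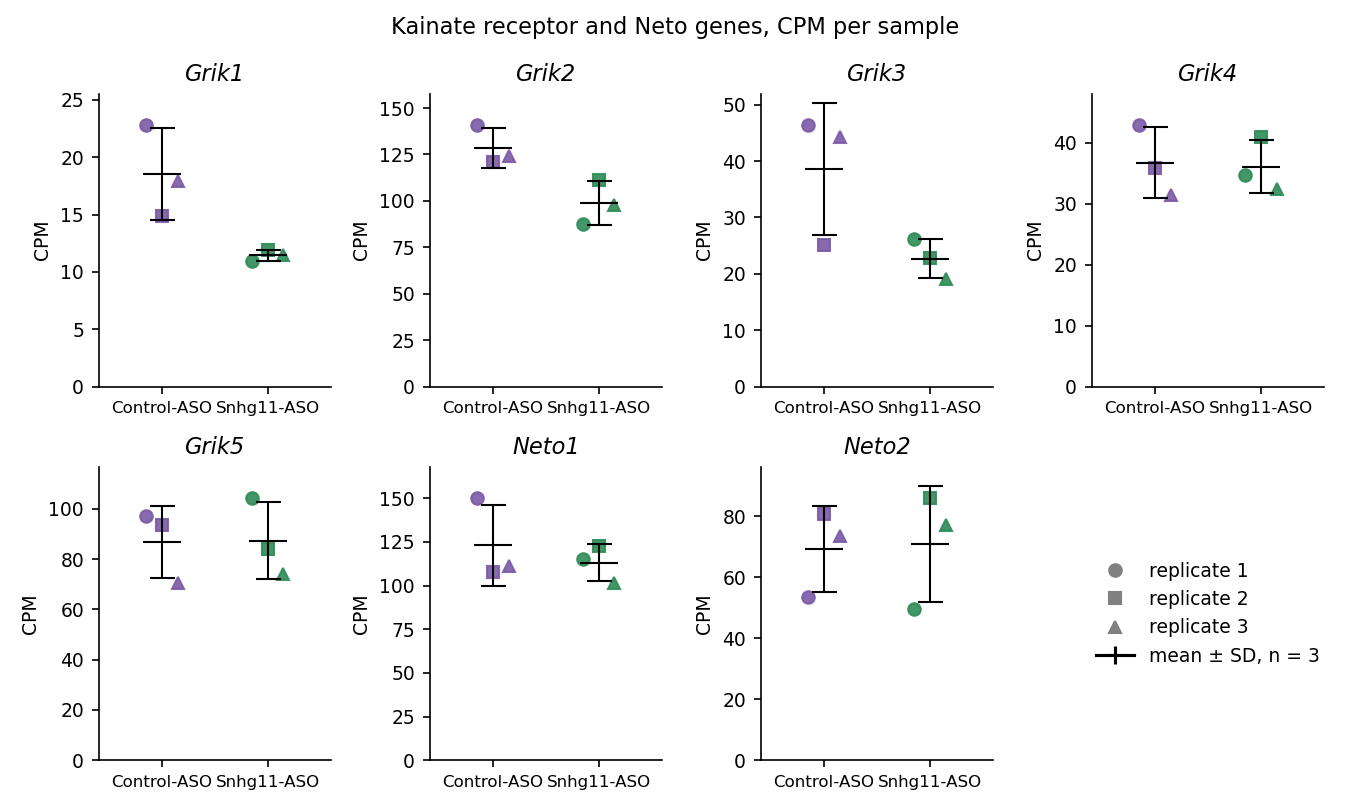
CPM (vertical axis, from 0) of each of the 7 genes in the 3 Control-ASO (purple) and 3 Snhg11-ASO (green) samples, with the marker shape giving the replicate number and the bars the mean ± SD. Grik1 and Grik2 do not overlap between the groups, while Grik4, Grik5, Neto1 and Neto2 do.

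Grik1 (ENSMUSG00000022935; chromosome 16, 87895900 to 88290265, a span of 394.4 kb) encodes GluK1, the subunit most tied to interneurons. Control-ASO replicates 1 to 3 were at 22.8, 14.9 and 17.9 CPM, and Snhg11-ASO replicates 1 to 3 at 10.96, 11.9 and 11.5 CPM. No Snhg11-ASO sample reached the lowest Control-ASO value, and these samples were much closer to one another than the Control-ASO samples were. The mean went from 18.5 ± 4.01 to 11.4 ± 0.465 CPM (SD, n = 3 per group), and the two-sided exact permutation test gave p = 0.1, the smallest possible with 3 samples a group. In edgeR this came to a log2 fold change of -0.70 with a standard error of 0.18 and an interval of -1.11 to -0.28 (unadjusted p = 0.00542, adjusted p = 0.479). DESeq2 gave an adjusted p of 0.0414, so Grik1 passed the threshold there. With any 1 Snhg11-ASO sample left out, DESeq2 did not call it (adjusted p = 0.0597, 0.126 and 0.161 without replicates 1, 2 and 3, where 1.72%, 1.35% and 1.1% of all genes were called).

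Grik3 (ENSMUSG00000001985; chromosome 4, 125490700 to 125714173, 223.5 kb) encodes GluK3, a subunit of low glutamate sensitivity. Levels of 46.4, 25.2 and 44.3 CPM after Control-ASO stood against 26.1, 22.8 and 19.1 CPM after Snhg11-ASO. Control-ASO replicate 2 was close to the Snhg11-ASO samples and below Snhg11-ASO replicate 1, so the groups overlapped (exact permutation test without pairing, p = 0.2). Within each group Grik3 followed the order of the summed choroid plexus markers, a relation that was not tested. The labels do not pair the samples. Between samples of the same replicate number, Grik3 was lower in 3 of 3 pairs, against 16.7% of all genes. For Grik1 and Grik2 the lack of overlap between the groups fixes this count at 3 of 3. For Grik3 only Snhg11-ASO replicate 1 lay above any Control-ASO value, so most ways of pairing the samples give 3 of 3 too. The count therefore adds no support for any of these genes. The log2 fold change of Grik3 came to -0.77 with a standard error of 0.25 and an interval of -1.35 to -0.19 (edgeR, unadjusted p = 0.0169, adjusted p = 0.543). Without Control-ASO replicate 2 it was -1.0 (adjusted p = 0.295 from edgeR). DESeq2 did not call Grik3 with all samples (adjusted p = 0.142) but did without Snhg11-ASO replicate 1 (adjusted p = 0.0391).

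Grik2 (ENSMUSG00000056073; chromosome 10, 49094833 to 49788766, 693.9 kb) encodes GluK2, the main subunit of the mossy fibre receptors. Its levels were 140.9, 121 and 124 CPM after Control-ASO, against 87.8, 111 and 97.7 CPM after Snhg11-ASO. The groups did not overlap, with 111 CPM in the highest Snhg11-ASO and 121 CPM in the lowest Control-ASO sample (exact permutation test, p = 0.1). For Grik2 edgeR gave a log2 fold change of -0.38 with a standard error of 0.12 and an interval of -0.65 to -0.10 (unadjusted p = 0.0139, adjusted p = 0.529), and DESeq2 gave an adjusted p of 0.209. Grik1 and Grik2 were thus the 2 of 7 genes with every Snhg11-ASO sample below every Control-ASO sample, against 7.7% of all genes tested, and 0 of the 7 were separated upward, against 7.73% (15.4% in either direction). Without Snhg11-ASO replicate 1, the sample that stood apart, edgeR gave log2 fold changes of -0.66 for Grik1, -0.30 for Grik2 and -0.88 for Grik3.

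The high-affinity subunits were near their Control-ASO level, with overlapping groups. Grik4 (ENSMUSG00000032017; chromosome 9, 42518135 to 42944493, 426.4 kb), a gene of CA3 and granule cells, was at 42.9, 35.8 and 31.5 CPM after Control-ASO, against 34.8, 40.97 and 32.5 CPM after Snhg11-ASO. Its log2 fold change was -0.03, with a 95% interval of -0.38 to 0.33 (adjusted p = 0.973 from edgeR). Grik5 (ENSMUSG00000003378; chromosome 7, 25009849 to 25072346, 62.5 kb), whose product GluK5 joins GluK2 in most principal neurons, was at 97.0, 93.5 and 70.5 CPM against 104, 83.9 and 74.0 CPM. In both groups replicate 1 was highest and replicate 3 lowest. The log2 fold change of Grik5 was 0.01, with an interval of -0.40 to 0.41 (adjusted p = 0.995 from edgeR). The intervals of Grik4 and Grik5 both include the log2 fold change of Grik2, -0.38, close to their lower ends, and neither includes that of Grik1 or Grik3. The intervals of Grik1 and Grik3 themselves overlap those of Grik4 and Grik5, and no test compared these genes with one another.

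The auxiliary subunits overlapped between the groups. Neto1 (ENSMUSG00000050321; chromosome 18, 86394952 to 86506718, 111.8 kb), which in hippocampus is strongest in CA3, was measured at 149.9, 108 and 111 CPM after Control-ASO, against 115, 123 and 101 CPM after Snhg11-ASO. Its log2 fold change was -0.12 (interval -0.47 to 0.23, adjusted p = 0.853 from edgeR), and the highest of the 6 values was that of Control-ASO replicate 1. Neto2 (ENSMUSG00000036902; chromosome 8, 85636588 to 85700924, 64.34 kb) had 53.4, 80.6 and 73.4 CPM against 49.6, 85.9 and 77.2 CPM. It was lowest in replicate 1 and highest in replicate 2 of both groups. The log2 fold change of Neto2 was 0.04 (interval -0.52 to 0.59, adjusted p = 0.977 from edgeR), and 0.02 with a standard error of 0.09 in the fit with the replicate number as a block, against a standard error of 0.23 without it.

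**Figure D2:**
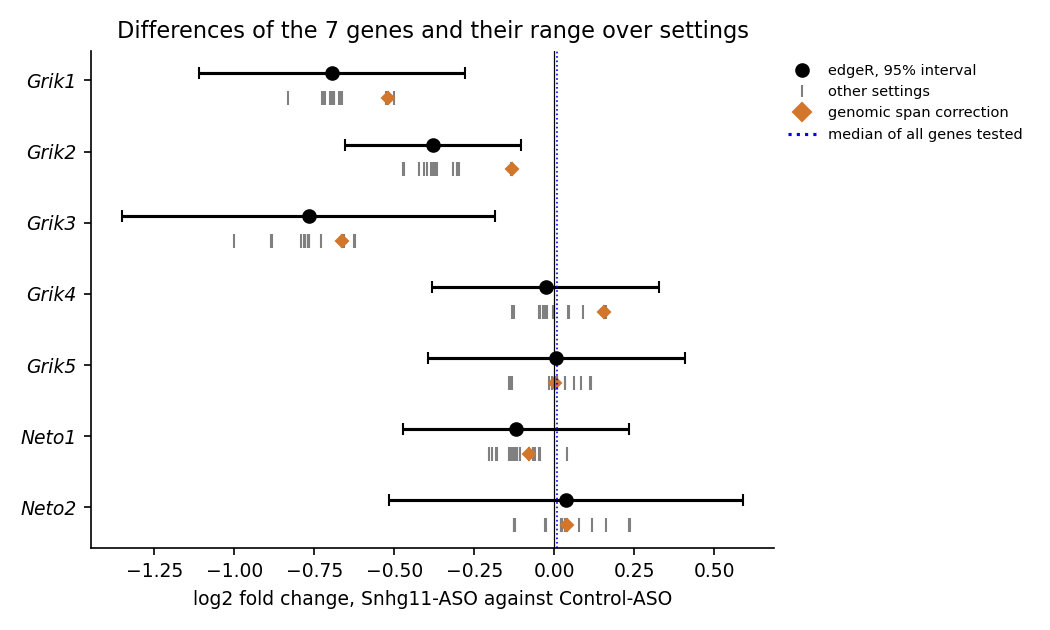
Log2 fold change of Snhg11-ASO against Control-ASO (horizontal axis) for the 7 genes, with edgeR's estimate and 95% interval as black points and bars, the other settings as grey ticks, the fit corrected for genomic span as orange diamonds and the median of all genes tested as a dotted line. Grik1, Grik2 and Grik3 are below 0 under each setting drawn, Grik2 only by 0.13 after the span correction, while the ticks of Grik4, Grik5, Neto1 and Neto2 lie on both sides of 0.

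The mix of subunit transcripts was compared per kb of length, since longer transcripts yield more read pairs. Lengths were those of all annotated exons merged, or of the transcript with the longest coding sequence, and these lengths differ most for Grik2 (13.25 and 3.992 kb). Per kb of the latter, Control-ASO means were 32.2 ± 2.70 CPM for Grik2, 23.1 ± 3.82 for Grik5, 14.7 ± 2.80 for Neto1, 12.3 ± 2.52 for Neto2, 10.8 ± 1.69 for Grik4, 6.30 ± 1.36 for Grik1 and 4.30 ± 1.30 for Grik3 (CPM per kb, SD, n = 3). In this order the Control-ASO ranges of Neto1 and Neto2, of Neto2 and Grik4 and of Grik1 and Grik3 overlapped, and the other neighbours did not. Per kb of merged exons Grik5 came first at 16.8 ± 2.78, its range overlapping that of Neto1, and Grik2 came after Neto2 at 9.71 ± 0.814 CPM per kb. Grik1 and Grik3 were the least abundant of the 7 on either scale.

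The high-affinity subunits took a larger part of the receptor transcripts in Snhg11-ASO. Grik4 and Grik5 together made up 44.3%, 48.1% and 39.9% of the summed CPM per kb of Grik1 to Grik5 after Control-ASO, against 56.95%, 49.9% and 48.9% after Snhg11-ASO, by the length of the longest-coding transcript. The lowest Snhg11-ASO share was above the highest Control-ASO share, though the gap between 48.1% and 48.9% was small beside the spread in each group. By merged exons the shares were 57.5%, 63.0% and 52.7% against 69.9%, 64.5% and 63.8%, again without overlap. The share of Grik1 went from 8.17% ± 1.13 to 6.001% ± 0.471, and that of Grik3 from 5.61% ± 1.64 to 3.88% ± 0.434, the latter with overlap (SD, n = 3, longest-coding transcript). Neto1 made up 65.4%, 47.4% and 50.4% of both Neto genes after Control-ASO, against 60.98%, 48.95% and 46.9% after Snhg11-ASO, and did not separate the groups. These shares rest on the same counts as the differences above and are descriptions.

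**Figure D3:**
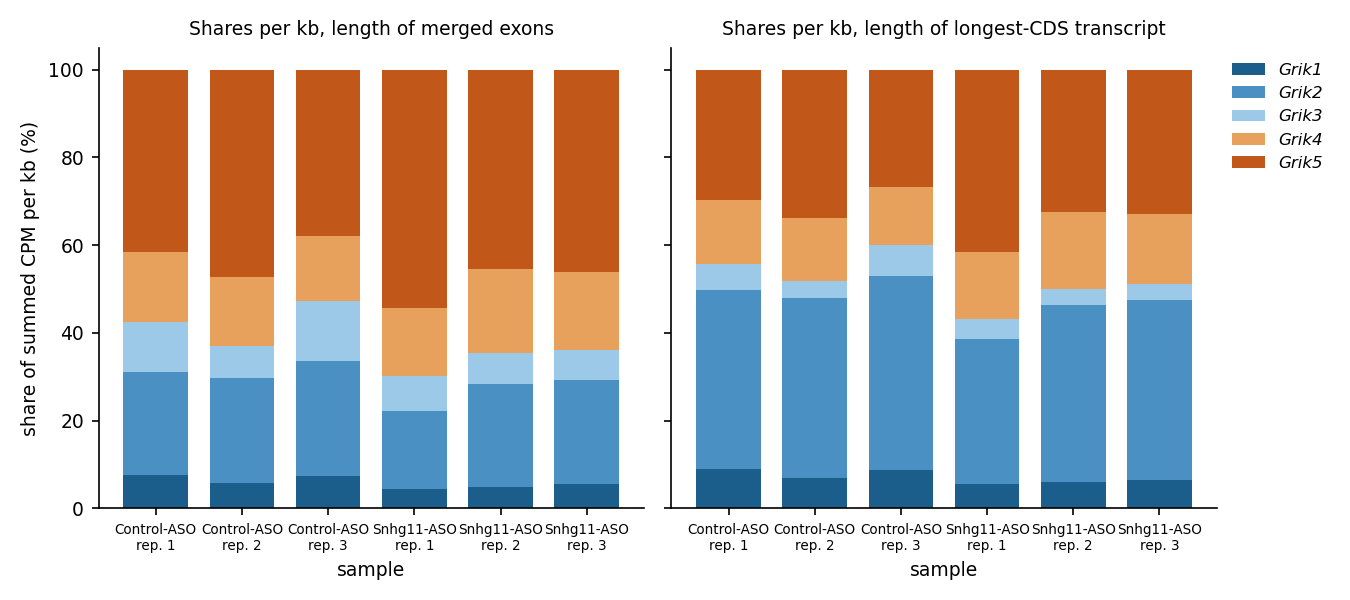
Share of each subunit gene in the summed CPM per kb of Grik1 to Grik5 (vertical axis, percent) in each of the 6 samples, by the length of merged exons (left) and of the longest-coding transcript (right), with low-affinity subunits in blue and high-affinity subunits in orange. The orange part is larger in every Snhg11-ASO sample than in any Control-ASO sample, from 48.9% against at most 48.1% in the right panel.

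The genes that were lower are long, and long genes were lower in general. Of 986 genes tested that span at least 200 kb, a limit chosen with earlier results known, 74.6% had a log2 fold change below 0, against 48.3% of all genes. Unadjusted p-values under 0.05 with a lower level were reached by 24.4% of these long genes, whose median log2 fold change was -0.17. Their groups did not overlap, with the lower level after Snhg11-ASO, in 28.7%, and DESeq2 called 6.8% lower. The 4 kainate receptor genes of that size, Grik1 to Grik4, had a median of -0.54, with 3 of 4 at an unadjusted p under 0.05, 2 of 4 without overlap and 1 of 4 called by DESeq2. The other 3 genes, Grik5, Neto1 and Neto2, are shorter. After the trend of each sample with genomic span was removed, the log2 fold change of Grik2, the longest of the 7, was -0.13 (unadjusted p = 0.219 from edgeR). That of Grik1 was -0.52 (unadjusted p = 0.0169) and that of Grik3 -0.66 (unadjusted p = 0.0278), against 3.54% of all genes with a lower level at an unadjusted p under 0.05 in this fit. Grik4, of a span similar to that of Grik1, was at 0.16 after the correction.

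Introns of Grik2 could be read through 6 genes annotated within them on the same strand, none of which shares exonic bases with Grik2. Reads on such genes can come from the unspliced Grik2 transcript, since the libraries were made from ribo-depleted total RNA. From the start of Grik2 onward, their mean levels in Control-ASO were 2.52 CPM per kb for Gm47022, 3.12 for Gm47016, 2.18 for Gm47023, 1.54 for Gm47018, 1.36 for Gm26543 and 1.79 for Gm47017. The levels were thus highest for the 2 genes nearest the start of Grik2.

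Between the groups, the difference of none of these 6 genes passed the adjusted threshold. Gm47022, 87.17 kb from the start, was at 7.21, 5.95 and 5.52 CPM after Control-ASO, against 4.96, 7.03 and 6.16 CPM after Snhg11-ASO, a log2 fold change of -0.04 (standard error 0.20). Gm47017, 598.1 kb from the start, was at 7.41, 6.03 and 4.69 CPM against 4.62, 4.86 and 3.99 CPM, a log2 fold change of -0.43 (standard error 0.22). The log2 fold changes of those between were -0.19 for Gm47016, -0.38 for Gm47023, -0.39 for Gm47018 and -0.48 for Gm26543. Adjusted p-values from edgeR were 0.671 to 0.969, and the standard errors of 0.19 to 0.33 cover the difference between neighbours. Only Gm47023, 305.5 kb from the start, separated the groups among these 6, with 5.68, 5.65 and 4.87 CPM against 3.49, 4.79 and 4.17 CPM. Within each library, the counts on the 3 genes farthest from the start were 1.0, 0.962 and 0.807 times those on the 2 nearest after Control-ASO, against 0.877, 0.715 and 0.659 times after Snhg11-ASO. These ratios do not depend on library scaling, and they overlapped between the groups. The 5 genes were grouped after their values were seen, with Gm47023 left out, so the grouping itself favoured a lower ratio after Snhg11-ASO. The ratios were lower in 3 of 3 replicate pairs, but the labels state no such pairing.

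**Figure D4:**
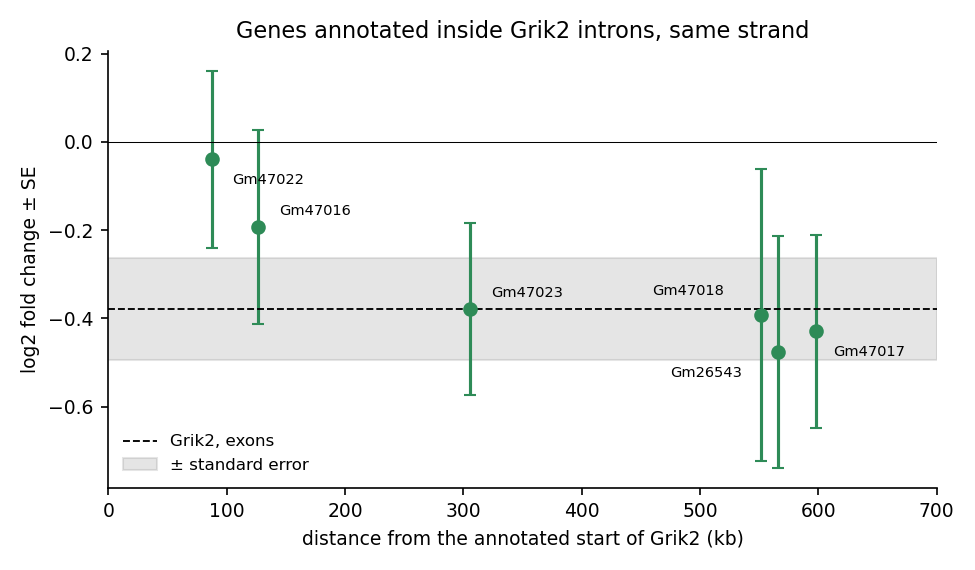
Log2 fold change ± standard error (vertical axis) of the 6 genes annotated inside Grik2 introns against their distance from the annotated start of Grik2 in kb (horizontal axis), with the exonic Grik2 value of -0.38 as a dashed line and its standard error as a grey band. The points go from -0.04 at 87.17 kb to -0.43 at 598.1 kb, with error bars that overlap throughout.

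Signal on the strand opposite to each of the 7 genes was low. It came to 0 to 23 read pairs per gene and sample, and to 0.113% (Grik4) to 1.18% (Grik1) of the counts of both strands, with no gene separated between the groups.

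The summed markers of interneurons and of oligodendrocyte precursors, both cell types that express some of these receptor genes, were also lower in Snhg11-ASO. The 10 interneuron markers summed to 586 to 653 CPM in Control-ASO and to 466 to 542 CPM in Snhg11-ASO samples. Of these 10, 9 had a lower mean, and Gad1, Sst, Vip and Reln were lower without overlap, against 48.3% and 7.7% of all genes tested. The 3 precursor markers, Pdgfra, Cspg4 and Olig2, summed to 82.5 to 92.9 CPM against 68.9 to 81.4 CPM, with none at 0. Pdgfra and Cspg4 were lower without overlap. Olig2 went the other way, from a mean of 8.84 to 9.94 CPM, with overlap. In bulk tissue fewer cells of a type and less RNA per cell cannot be told apart. Per 1000 CPM of interneuron markers, Grik1 stood at 34.9, 25.3 and 30.6 after Control-ASO, against 22.0, 25.5 and 21.1 after Snhg11-ASO, so the groups overlapped on this scale. Per 1000 CPM of precursor markers Grik1 was at 246, 180 and 202 against 159, 157 and 141, and per 1000 CPM of pan-neuronal markers at 10.8, 6.80 and 8.40 against 6.18, 5.65 and 5.79, both without overlap. Grik3 stood at 499, 305 and 501 per 1000 CPM of precursor markers against 379, 300 and 235, with overlap between the groups. By replicate number it was lower in 3 of 3 pairs, a pairing that the labels do not state. Per 1000 CPM of interneuron markers Grik3 was at 71.0, 42.8 and 75.6 against 52.5, 48.9 and 35.3, with overlap. Grik1, Grik2 and Grik3 were each lower in 2 of 3 pairs on the interneuron scale, as was Grik2 on the precursor scale. The 5 pan-neuronal markers summed to 2108 to 2185 CPM against 1773 to 2105 CPM, and per 1000 CPM of these Grik2 was at 66.8, 55.2 and 58.3 after Control-ASO, against 49.5, 52.9 and 49.4 after Snhg11-ASO, without overlap. Grik2 overlapped per 1000 CPM of interneuron markers (216, 205 and 212 against 176, 239 and 180) and of precursor markers. The part of cell composition in these differences was not tested. Markers of granule cells (7 genes, 318 to 375 CPM against 344 to 431 CPM) and of CA3 pyramidal cells (4 genes, 76.6 to 106 CPM against 87.9 to 113 CPM) overlapped between the groups.

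Proteins known to bind, modify or recruit kainate receptors were read from a list of 20 genes, of which 19 were matched and tested. In edgeR 0 of the 19 had an adjusted p under 0.05. Of these, 10 were lower and 9 higher, with a median log2 fold change of -0.004, and 3 lower genes and 1 higher gene had an unadjusted p under 0.05, against 4.43% and 3.68% of all genes and, among genes of at least 200 kb, 24.4% lower. Nrxn3, a presynaptic neurexin that with C1ql proteins gathers kainate receptors at mossy fibre synapses, was at 278, 328 and 237 CPM after Control-ASO, against 192, 186 and 142 CPM after Snhg11-ASO. This gave a log2 fold change of -0.70 with a standard error of 0.16 (edgeR, adjusted p = 0.452). DESeq2 called it (adjusted p = 0.0221), alone among the 19, against 1.29% of all genes. Nrxn3 spans 1612 kb, and after the span correction its log2 fold change was -0.33 (edgeR, unadjusted p = 0.0608). DESeq2 called it without Snhg11-ASO replicate 1 (adjusted p = 0.00169) but not without replicate 2 or 3 (adjusted p = 0.0521 and 0.111). Its partners C1ql2 and C1ql3 were at -0.02 and -0.07. Dlg1, a scaffold protein of the SAP97 type, went from 123 to 95.3 CPM on average with a log2 fold change of -0.36 (edgeR, unadjusted p = 0.0421). After the span correction that of Dlg1 was -0.26 (edgeR, unadjusted p = 0.125). The levels of Sdcbp (syntenin), which binds the tails of receptor subunits, were 167, 209 and 189 CPM against 232, 225 and 229 CPM, a log2 fold change of 0.28 (unadjusted p = 0.0305 from edgeR). Of the 19 partners, 3 were lower and 1 higher without overlap between the groups, against 7.7% and 7.73% of all genes tested (15.4% in either direction). Nrxn3, Dlg1 and Sdcbp were among them, but they were named for their p-values in these same samples. Nrxn3 and Dlg1 span at least 200 kb, and 28.7% of genes of that size were lower without overlap. Adarb1, the editing enzyme named above, was at 154, 163 and 158 CPM after Control-ASO, against 160, 156 and 130.4 CPM after Snhg11-ASO, a log2 fold change of -0.09 (interval -0.33 to 0.15).

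Among the other ionotropic glutamate receptors, AMPA and NMDA receptor subunits are the closest families. Of the 4 AMPA receptor genes 3 were lower, with a median log2 fold change of -0.10, and of the 6 NMDA receptor genes tested all 6 were lower, with a median of -0.32. Among all genes tested 48.3% were lower, and 74.6% of those spanning at least 200 kb. The median of both families together was -0.18, and -0.049 after the span correction. For single NMDA receptor genes the corrected values were -0.57 (Grin3a), -0.47 (Grin2c and Grin2d), -0.07 (Grin1), -0.02 (Grin2b) and 0.04 (Grin2a). Among these only Grin2a and Grin2b span at least 200 kb (427.7 and 460.3 kb). Gria1, Gria2 and Gria3 were at 0.09, 0.07 and -0.01 after the correction. Neither family had a gene with an adjusted p under 0.05 in edgeR or DESeq2. At an unadjusted p under 0.05 in edgeR there was 1 AMPA receptor gene, Gria4, and 0 NMDA receptor genes. The share with a lower level at this threshold was 4.43% of all genes and 24.4% of those of at least 200 kb. Gria4, a subunit prominent in interneurons, was at 76.0, 62.0 and 89.9 CPM against 40.0, 54.6 and 58.8 CPM, a log2 fold change of -0.57 (standard error 0.19, unadjusted p = 0.0187 from edgeR). Gria4 spans 378.3 kb, and after the span correction its log2 fold change was -0.40 (edgeR, unadjusted p = 0.082). No test compared the families with one another.

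**Figure D5:**
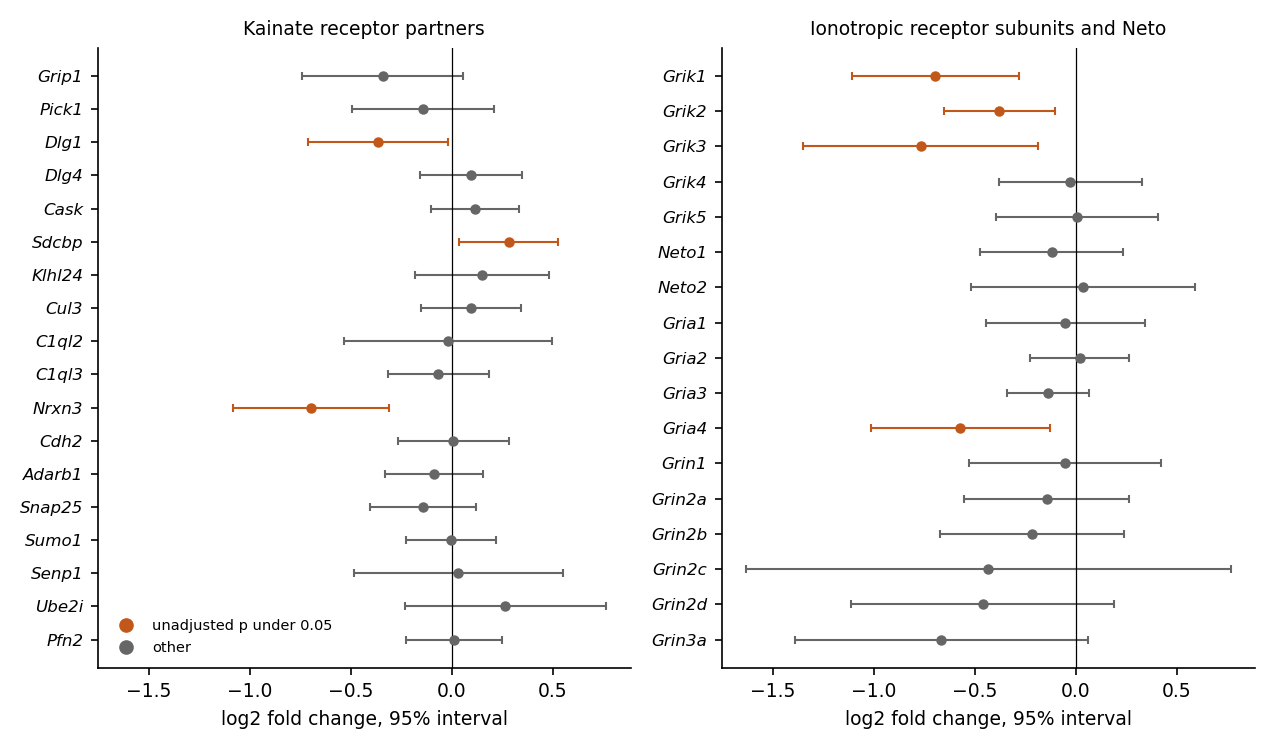
Log2 fold change of Snhg11-ASO against Control-ASO with edgeR's 95% interval (horizontal axis) for kainate receptor partners (left) and for the kainate, Neto, AMPA and NMDA receptor genes tested (right), in orange where the unadjusted p was under 0.05. The orange points are Dlg1, Sdcbp and Nrxn3 on the left and Grik1, Grik2, Grik3 and Gria4 on the right.

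The genes closest to each member in their pattern over the 6 samples were found by the root mean square difference of log2 CPM, each gene centred on its own mean, among 10436 genes with a mean log2 CPM over 3. For Grik1 these were A230057D06Rik and Tenm2, a teneurin adhesion protein, at 0.0711 and 0.072 log2 units, where Grik1 itself varied by 0.382 around its mean. For Grik2 they were C2cd5 at 0.0191 and Gm45182 at 0.0273, and for Grik3 the kinase gene Cit at 0.107 and the teneurin gene Tenm4 at 0.11. Grik4 was closest to Mpp3 (0.0307) and Ttc13 (0.0513), and Grik5 to Smpd3 (0.0489) and Tmem131 (0.0495). Neto1 was closest to Iqce (0.0482) and Plekhh3 (0.0528), and Neto2 to Sept6 (0.0471) and Rassf2 (0.0647). With 6 samples and that many candidates, close matches arise readily, and no test was made of them.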

How the data were processed

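The authors aligned paired-end reads of stranded, ribo-depleted total RNA libraries to the mouse genome (GRCm38, mm10) with STAR 2.5.2a, per the labels, and deposited raw counts of read pairs per gene, not normalized or pooled. Counting with Rsubread is stated in the paper's methods, but the deposited files are laid out as STAR's own gene counts. The annotation release they counted on is not given in the sources used here. Counts of the reverse strand were used, which held 96.2% to 96.8% of strand-resolved counts. Lines that name no gene held 43.5% to 51.4% of read pairs and were left out. Genes were named from GENCODE M21, which matched 55141 of 55401 identifiers.

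filterByExpr (minimum count 10) kept 19969 genes, and groups were compared with edgeR 4.0.16 (quasi-likelihood test, TMM factors, Benjamini-Hochberg adjustment, threshold 0.05) in R 4.3.3. Standard errors were taken from each log2 fold change and its F statistic, and 95% intervals use 6.99 degrees of freedom. Log2 CPM used a prior count of 2. The paper removed an unnamed Snhg11-ASO sample; all were kept here and each was left out in turn. The alternatives were DESeq2 1.42.0 with all samples and without each Snhg11-ASO sample, DESeq2 size factors, upper-quartile factors, both strands, 2 other filters, a replicate block, and corrections for genomic span and GC content. Fits were tested on simulated counts with seeded log2 fold changes of 2 in either direction and the same relative spread for all genes. These changes were larger than those of the members, so the simulation did not address differences of their size.

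The main fit and the permutation tests did not pair the samples. The replicate number served as a pairing only in the fits with a replicate block and in the counts of replicate pairs. The labels state no such pairing. After group means were subtracted, Control-ASO and Snhg11-ASO samples correlated across genes at 0.297, 0.179 and 0.103 for replicates 1, 2 and 3. Samples with different numbers were not compared in this way, so these values do not establish a pairing, and the pair counts are descriptions. Coding sequences were aligned with Biopython 1.88. The members and lists were chosen with earlier results of these data known. Named are the 7 members, Snhg11, the partner, AMPA and NMDA receptor genes with an unadjusted p under 0.05, genes within member loci with at least 10 counts in 3 samples, and the 2 genes closest in pattern to each member. The values of 1 partner gene are not reported here. Other names (C1ql2, C1ql3, Adarb1, the other AMPA and NMDA receptor genes, marker genes) are given as context and were chosen after their values were seen.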

Additional observations from a re-analysis of the deposited data

How the results depend on the processing

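In each of the 19 alternatives Grik1, Grik2 and Grik3 were lower in Snhg11-ASO. Their adjusted p-values ranged over these from 0.0414 to 0.979 (Grik1), 0.103 to 0.979 (Grik2) and 0.0391 to 0.979 (Grik3), and 1, 0 and 1 alternatives called them. Leaving out 1 sample at a time in edgeR gave log2 fold changes of -0.83 to -0.53, -0.47 to -0.30 and -1.0 to -0.63. The span correction moved Grik2 to -0.13, while the correction for GC content left it at -0.30.

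Grik4, Grik5, Neto1 and Neto2 lay near 0 and changed sign under some settings, and the cause was not tested. Grik5 was at -0.018 with upper-quartile factors, -0.0060 with no filter and -0.14 in DESeq2 without Snhg11-ASO replicate 1. Grik4 was at 0.16 with the span correction, with or without the block, and at 0.046 in DESeq2 without Snhg11-ASO replicate 3. Neto2 was at -0.12 and -0.027 in DESeq2 without Snhg11-ASO replicates 2 and 3. Leaving out each sample in edgeR gave -0.13 to 0.090 for Grik4, -0.14 to 0.11 for Grik5, -0.21 to 0.038 for Neto1 and -0.13 to 0.24 for Neto2.

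DESeq2 called 258 genes of all tested, and 347, 275 and 223 without Snhg11-ASO replicates 1, 2 and 3, whereas edgeR called 0, and 0 to 2 with 1 sample left out (2 without Snhg11-ASO replicate 1). Snhg11 had an adjusted p of 0.395 in edgeR and was called by DESeq2, with a log2 fold change of -2.13, and of -2.57, -1.94 and -1.96 without Snhg11-ASO replicates 1, 2 and 3. The median log2 fold change of the AMPA and NMDA receptor genes together was -0.049 with the span correction, and -0.32 (without Control-ASO replicate 3) to -0.11 with 1 sample left out. That of the partners was -0.052 (without Control-ASO replicate 3) to 0.0086. The replicate block gave a median of -0.11 for the 7 members, 5 of which were lower, and 0 genes called; it changed no call. With 3 samples a group, differences as small as those of Grik4 to Neto2 were not detectable at this spread.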
